A study of Homo sapiens with 48 samples.

Results

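The IGF-binding proteins IGFBP2, IGFBP3, IGFBP4, IGFBP5, IGFBP6 and IGFBP7 were followed by name through the gene table, which gave 6 of 19847 genes, and all 6 passed the limit of 10000 counts over all libraries that left 9991 genes for testing. They were measured by RNA-seq in IMR90 ER:RAS cells, a line of human lung fibroblasts that carries oncogenic RAS fused to the oestrogen receptor, so that 4-hydroxytamoxifen (4OHT) switches the fusion on and the cells enter senescence. Cells received 4OHT or its solvent DMSO for 6 days, were transfected with siRNAs that target SF3B1 (siSF3B1), RBM39 (siRBM39) or, as the control, no gene (siNT, non-targeting), and were kept in 0.5% serum for 2 days before collection. The 6 groups (DMSO siNT, DMSO siSF3B1, DMSO siRBM39, 4OHT siNT, 4OHT siSF3B1 and 4OHT siRBM39) held 8 libraries each, made of 2 siRNAs (siNT1 and siNT2, siSF3B1-13 and siSF3B1-16, siRBM39-06 and siRBM39-08) with 4 replicates. The DMSO cells carry the fusion too, all cells were transfected and in low serum, and no library of cells without the fusion was used here. For 4 libraries titled siNT2 in 4OHT another label names siNT1, and the title was followed. The labels do not say that replicates are separate cultures. The paper states for its in vitro work as a whole that replicates were independent experiments. Its methods and the labels differ on the number of replicates here, so that statement could not be matched to these libraries. The p-values measure the spread between these libraries, and a technical part in it was not tested and may be present.

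IGF-binding proteins are secreted carriers of the insulin-like growth factors IGF1 and IGF2. They prolong the life of the ligands in blood and tissue and decide how much of them reaches the receptor IGF1R, and proteases such as PAPPA cut some of them and free the ligand. IGFBP7 binds the ligands weakly, and several of the proteins, among them IGFBP3, IGFBP5 and IGFBP7, are known as products that senescent fibroblasts secrete. SF3B1 is a part of the U2 snRNP, which binds the branch point ahead of the 3′ splice site, and RBM39 is a splicing factor related to a protein that helps to recognise the 3′ splice site.

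In GRCh37, IGFBP2 lies at chr2:217497551-217529159 on the plus strand and IGFBP5 next to it at chr2:217536828-217560272 on the minus strand, 7668 bases apart. IGFBP7 lies at chr4:57896939-57976551 on the minus strand and IGFBP6 at chr12:53491220-53496129 on the plus strand. IGFBP4 lies at chr17:38599702-38613977 on the plus strand, and IGFBP3 at chr7:45951844-45961473 on the minus strand. Other genes overlap IGFBP5 and IGFBP7 (DIRC3-AS1 at the start of IGFBP5, IGFBP7-AS1 at the start and POLR2B at the end of IGFBP7), and since the sources used here do not say that counting used the strand, reads in those overlaps cannot be told apart.

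Introns 1 to 3 of IGFBP2 are shown because the largest difference in splicing found in any of the 6 genes was in intron 2 (chr2:217525510-217526580, plus strand, GRCh37), while intron 1 (chr2:217498689-217525279) and intron 3 (chr2:217526722-217528662) flank it in the same transcripts. Each 5′ end is given with 10 exon bases in capitals and 20 intron bases, and each 3′ end with 60 intron bases and 10 exon bases in capitals.
IGFBP2 intron 1, 5′ end: CAGGTTGCAGgtaacgcggtctggaacaag
IGFBP2 intron 2, 5′ end: CCCTGCCAGGgtcagtgagggtcaggtctg
IGFBP2 intron 3, 5′ end: CCTCAAACAGgtgagcatggtgccagcctg
IGFBP2 intron 1, 3′ end: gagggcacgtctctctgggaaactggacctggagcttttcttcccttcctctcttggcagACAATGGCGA
IGFBP2 intron 2, 3′ end: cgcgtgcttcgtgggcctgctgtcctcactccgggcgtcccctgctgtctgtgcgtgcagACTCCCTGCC
IGFBP2 intron 3, 3′ end: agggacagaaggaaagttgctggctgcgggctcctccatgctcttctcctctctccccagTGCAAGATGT
The introns were 26591, 1071 and 1941 bases long with 49.0%, 54.1% and 51.1% G and C, and the highest retention in any library was 0.41%, 13.45% and 4.42%.

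The promoters of IGFBP3 and IGFBP6 are shown because these 2 members changed most and in opposite directions when 4OHT was given. Both are RefSeq sequences of the 250 bases before the start in GRCh38.p14 (IGFBP3 chr7:45921273-45921522, minus strand; IGFBP6 chr12:53097417-53097666, plus strand), with motif letters in capitals.
IGFBP3 promoter: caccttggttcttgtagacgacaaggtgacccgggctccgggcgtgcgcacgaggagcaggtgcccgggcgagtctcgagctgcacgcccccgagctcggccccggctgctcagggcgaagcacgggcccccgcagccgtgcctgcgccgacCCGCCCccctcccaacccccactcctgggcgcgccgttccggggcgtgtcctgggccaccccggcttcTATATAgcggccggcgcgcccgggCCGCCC
IGFBP6 promoter: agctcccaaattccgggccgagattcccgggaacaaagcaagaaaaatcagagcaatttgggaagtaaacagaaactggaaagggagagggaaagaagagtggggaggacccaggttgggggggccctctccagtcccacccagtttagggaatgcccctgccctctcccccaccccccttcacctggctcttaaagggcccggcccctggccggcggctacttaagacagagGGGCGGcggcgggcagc
The letters searched on both strands were TATAAA (held by 10.7% of 35116 promoters of this length), TATATA (held by 3.73%), CCAAT (held by 32%), GGGCGG (held by 42.6%), TGACTCA (held by 4.20%) and CACGTG (held by 6.34%). IGFBP3 held TATATA 30 bases before the start and GGGCGG on the other strand at 98 and 6 bases, and IGFBP6 held GGGCGG 17 bases before the start, with no overlap between matches. IGFBP3 had 76.0% G and C and IGFBP6 61.2%, against a median of 58% over all promoters. IGFBP2, IGFBP4 and IGFBP5 were matched as well and IGFBP7 was not.

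The gene counts of a library summed to between 31467221 and 52734636. SF3B1 lay between 25.3 and 35.2 CPM in the siSF3B1 libraries against 311 to 396 in siNT. RBM39 lay between 13.7 and 30.96 CPM in siRBM39. In siNT it had 158 to 185 CPM in DMSO and 115 to 127 in 4OHT, without overlap. The other target was higher on average with each knockdown. Mean RBM39 was 170% and 186% of siNT with siSF3B1-13 and siSF3B1-16 in DMSO, and 207% and 210% in 4OHT. Mean SF3B1 was 133% and 141% of siNT with siRBM39-06 and siRBM39-08 in DMSO, and 132% and 113% in 4OHT. In siNT, 4OHT raised CDKN2B by 2.38 and IL6 by 6.48 on the log2 scale and lowered LMNB1 by a log2 fold change of -2.47. All 8 fibroblast markers had a median of at least 1 cRPKM (an RPKM corrected for mappability), and summed they lay between 11304 and 12335 cRPKM in DMSO siNT and between 4450 and 4648 in 4OHT siNT, so that they moved with the 4OHT comparison, and their part in it was not tested. In RNA from whole cultures, fewer expressing cells and less RNA per cell cannot be told apart.

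Before the results, 1 library has to be named. Replicate 4 of siRBM39-08 in 4OHT had 105.9 CPM of IGFBP2 where the other 3 replicates had 36.9 to 45.4. For IGFBP4 it had 3270 CPM against 1610 to 1744, and for IGFBP6 95.8 CPM against 21.3 to 22.3. It was low for IGFBP5, at 4578 CPM against 6841 to 7188, and for IGFBP7, at 264 CPM against 355 to 399, while its IGFBP3, at 25.8 CPM against 30.2 to 31.8, lay closer to the rest. The same library had 13.0 cRPKM of the epithelial keratin KRT5 and 1.53 of EPCAM. Replicates 1 and 3 of siRBM39-06 in DMSO leaned the same way in part, with IGFBP6 at 161 and 116 CPM, KRT5 at 3.64 and 2.05 cRPKM and EPCAM at 1.40 and 1.13, where the other 45 libraries had 0.58 to 2.08 cRPKM of KRT5 and 0.26 to 1.03 of EPCAM. The KRT5 of replicate 3 thus lay within the others, as did its CDH1 (0.13 and 0.04 cRPKM in the 2 replicates, 0 to 0.08 in the others). IGFBP7 was not low in both, at 186 and 222 CPM, the 222 being the highest of DMSO siRBM39. The 4 epithelial markers summed to 14.8, 5.22 and 3.24 cRPKM in the 3 libraries and to 0.93 to 2.65 in the others, with KRT14 at 0.06 or less throughout, and their part in the results was not tested. The siRBM39 results that they move most are given with and without them. Endothelial and blood markers summed to at most 0.97 and 0.22 cRPKM in any library.

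Per length, IGFBP5 and IGFBP4 stood far above the other members in every group. In DMSO siNT the cRPKM of IGFBP5, which binds extracellular matrix as well as the ligands, was 652 ± 21.98 (SD, n = 8). IGFBP4, an inhibitory carrier that PAPPA cuts, had 627 ± 43.4, and the 2 overlapped, IGFBP5 being the higher in 5 of 8 libraries. IGFBP7 followed at 121 ± 7.41, IGFBP6, which prefers IGF2, at 78.0 ± 5.62, IGFBP2, which also binds integrins, at 44.8 ± 3.55 and IGFBP3, the main carrier in blood, at 15.2 ± 1.51, with no overlap between neighbours in this order. In 4OHT siNT the order of cRPKM was IGFBP5 (1099.5 ± 41.5), IGFBP4 (656 ± 33.6), IGFBP7 (262 ± 10.3), IGFBP3 (48.3 ± 2.31), IGFBP2 (22.5 ± 1.52) and IGFBP6 (14.1 ± 1.42), again without overlap. IGFBP3 had thus gone from the last place to the fourth and IGFBP6 from the fourth to the last. In 4OHT siSF3B1, IGFBP3 (17.2 ± 4.72 cRPKM) was the lowest again, overlapping IGFBP6 (19.7 ± 1.93), and IGFBP5 reached 1442 ± 136.

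Together the 6 genes took 0.562% to 0.587% of all counts in DMSO siNT, 0.802% to 0.906% in 4OHT siNT and 1.04% to 1.29% in 4OHT siSF3B1. IGFBP5 alone held 53.2% to 79.0% of the counts of the 6, and with IGFBP4 91.3% to 95.9%. IGFBP1, the remaining member of the classical family, had at most 0.71 cRPKM and 569 counts over all 48 libraries and was not tested.

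What 4OHT does to these genes without a targeting siRNA is shown by siNT, where RBM39 itself was lower in 4OHT than in DMSO. IGFBP3, IGFBP7 and IGFBP5 rose, IGFBP6 and IGFBP2 fell, and IGFBP4 did not pass the test. Of the 6 genes 3 were called higher and 2 lower, in a comparison in which 39% of all genes tested were called higher and 39.1% lower at an edgeR adjusted p under 0.05. In 5 of the 6 the 8 libraries with 4OHT did not overlap the 8 with DMSO, which held for 71.4% of all genes. A change of at least 2-fold was seen in 3 of the 6 and in 18.5% of all genes.

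IGFBP3 had 12.9, 14.7 and 18.1 CPM (lowest, median and highest of 8 libraries) in DMSO siNT and 45.5, 47.1 and 51.6 CPM in 4OHT siNT. All 4OHT libraries were above all DMSO libraries. It rose 3.20-fold (log2 fold change 1.68, SE 0.17, edgeR adjusted p = 3.32e-12). IGFBP7 had 149, 165 and 177 CPM in DMSO siNT and 334, 360.0 and 380 CPM in 4OHT siNT, again with all 4OHT libraries on top, and rose 2.18-fold (1.13 on the log2 scale, SE 0.08, edgeR adjusted p = 1.25e-17). IGFBP5 went from 3810, 3938 and 4162 CPM to 6312, 6755 and 7115 CPM. Its groups did not overlap either, and the rise was 1.69-fold (log2 fold change 0.76, SE 0.08, edgeR adjusted p = 2.21e-12). Because IGFBP5 is so abundant, this gain was by far the largest of the 6 in CPM.

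IGFBP6 had 79.0, 85.0 and 97.2 CPM in DMSO siNT and 13.99, 15.4 and 18.7 CPM in 4OHT siNT. Every 4OHT library was below every DMSO library. This was the largest change of any member between groups, 5.48-fold lower (log2 fold change -2.46, SE 0.22, edgeR adjusted p = 2.67e-14). IGFBP2 had 54.8, 60.9 and 68.4 CPM in DMSO siNT and 27.6, 31.7 and 32.9 CPM in 4OHT siNT, without overlap, and was 1.98-fold lower (log2 fold change -0.99, SE 0.15, edgeR adjusted p = 6.77e-08). IGFBP4 had 1200, 1309 and 1458 CPM in DMSO siNT and 1261, 1408 and 1505 CPM in 4OHT siNT. These groups overlapped, and the difference of 0.07 on the log2 scale (SE 0.11, edgeR adjusted p = 0.533) was within the spread.

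The same comparison was made with each splicing factor knocked down. In siSF3B1, 4OHT left 5 of 6 members called, 3 higher and 2 lower, where 37.6% of all genes were called higher and 38.1% lower. The member not called was IGFBP3, with a log2 fold change of -0.04 (SE 0.17, edgeR adjusted p = 0.834), whereas IGFBP4 was called here, at 0.31 (SE 0.11, edgeR adjusted p = 0.00727), though not without replicate 2 (0.29). IGFBP7 (1.00), IGFBP5 (0.56), IGFBP2 (-0.42) and IGFBP6 (-2.06) kept the direction they had in siNT. In siRBM39 all 6 were called, 4 higher and 2 lower, against 39.1% and 36.4% of all genes. There IGFBP3 rose by 0.90, IGFBP7 by 0.95, IGFBP5 by 0.69 and IGFBP4 by 0.27 on the log2 scale, and IGFBP2 (-0.60) and IGFBP6 (-1.60) fell. Without replicate 4 of siRBM39-08 in 4OHT, IGFBP4 was no longer called (0.099, edgeR adjusted p = 0.251) and IGFBP6 was at -2.10 and IGFBP2 at -0.88. IGFBP4 in siRBM39 was also not called on total counts (0.19) or with those groups alone (0.20), nor was IGFBP2 with siSF3B1-16 alone (-0.36) or siRBM39-08 alone (-0.040).

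The SF3B1 knockdown changed all 6 members in 4OHT and 3 of them in DMSO. In 4OHT, 5 members were higher than in siNT and IGFBP3 was lower, in a comparison in which 39.4% of all genes were called higher and 37.6% lower. No member overlapped between its 8 siSF3B1 and 8 siNT libraries, which was so for 68.9% of all genes, and IGFBP3 alone changed at least 2-fold, against 11.6% of all genes. In DMSO, IGFBP4, IGFBP5 and IGFBP7 were called higher and none lower, where 36.5% and 36.2% of all genes were called. The siRBM39 comparisons below use the same siNT libraries.

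In 4OHT, IGFBP3 fell from 45.5, 47.1 and 51.6 CPM in siNT to 12.9, 18.1 and 23.03 CPM in siSF3B1. The highest siSF3B1 library lay below the lowest siNT library and the siSF3B1 range overlapped that of DMSO siNT. The change was 2.67-fold lower (log2 fold change -1.42, SE 0.17, edgeR adjusted p = 4.24e-10). In DMSO its 15.1, 18.6 and 22.6 CPM in siSF3B1 overlapped siNT (log2 fold change 0.31, SE 0.17, edgeR adjusted p = 0.103). The effect in 4OHT differed from that in DMSO by -1.72 on the log2 scale (SE 0.24, edgeR adjusted p = 1.43e-07).

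IGFBP5 and IGFBP4 rose with SF3B1 knockdown under both treatments. IGFBP5 had 6012, 6268 and 6688 CPM in DMSO siSF3B1, above all siNT libraries (log2 fold change 0.68, SE 0.08, edgeR adjusted p = 1.06e-10). In 4OHT siSF3B1 it had 8224, 9206 and 10640.4 CPM, also above all siNT libraries (0.47, SE 0.08, edgeR adjusted p = 4.28e-07). IGFBP4 had 1493, 1769 and 2335 CPM in DMSO siSF3B1 and 2026, 2272 and 2524 CPM in 4OHT siSF3B1. Its siSF3B1 libraries were above the siNT libraries in either case, with log2 fold changes of 0.46 (SE 0.11, edgeR adjusted p = 0.000194) and 0.70 (SE 0.11, edgeR adjusted p = 1.24e-07). IGFBP7 rose less, by 0.42 in DMSO and 0.29 in 4OHT on the log2 scale (edgeR adjusted p = 8.49e-06 and 0.000997), and in DMSO its 177 to 269 CPM touched the siNT range.

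IGFBP2 and IGFBP6, the members that 4OHT lowered, were partly higher again in 4OHT siSF3B1. IGFBP2 had 42.5, 48.4 and 54.3 CPM there, between the ranges of 4OHT siNT and DMSO siNT and touching neither (log2 fold change 0.65, SE 0.15, edgeR adjusted p = 0.000123). IGFBP6 had 19.9, 22.96 and 26.99 CPM, above each 4OHT siNT library (0.56, SE 0.21, edgeR adjusted p = 0.0150) and far below DMSO siNT. In DMSO neither passed the test, IGFBP2 at 0.08 (edgeR adjusted p = 0.649) and IGFBP6 at 0.16 (edgeR adjusted p = 0.475). The effect on IGFBP2 differed between the treatments by 0.57 (SE 0.21, edgeR adjusted p = 0.0256), a call lost for IGFBP2 without replicate 2 (0.55) or 3 (0.56) and with siNT1 (0.50) or siNT2 (0.63) as the only control. The call for IGFBP6 in 4OHT was lost without replicate 2 (0.58) or 3 (0.49), with siSF3B1-16 alone (0.39) and with siNT2 as the only control (0.44). In the fit to all libraries, IGFBP2 and IGFBP3 were the 2 members with such a difference, which 37.8% of all genes showed. In that fit the difference for IGFBP6 was 0.40 (SE 0.29, edgeR adjusted p = 0.302). More members were called for this difference with the groups compared alone, or without the siRBM39 libraries that lean apart. The share of all genes called in those fits is not given here, so the rise says nothing about the members in particular. Which members were not called thus depends on the libraries fitted.

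Under RBM39 knockdown, 4 members were called in 4OHT and 1 in DMSO. In 4OHT, IGFBP2, IGFBP4 and IGFBP6 were higher and IGFBP3 lower, where 32.2% of all genes were called higher and 24.3% lower. IGFBP2, IGFBP3 and IGFBP4 did not overlap between siRBM39 and siNT, against 25.1% of all genes, and IGFBP3 was the 1 member called at 2-fold or more, against 2.29% of all genes. In DMSO, IGFBP7 was called higher, where 23.9% of all genes were called higher and 22.2% lower.

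IGFBP3 had 13.3, 20.2 and 31.8 CPM in 4OHT siRBM39, below each siNT library. It was 2.19-fold lower (log2 fold change -1.13, SE 0.17, edgeR adjusted p = 2.19e-07), and -1.17 without the library that stands apart. In DMSO its 8.13, 11.98 and 15.3 CPM overlapped siNT (-0.35, SE 0.17, edgeR adjusted p = 0.0916). The effects in the 2 treatments differed by -0.78 (SE 0.24, edgeR adjusted p = 0.0219), a call that was lost for IGFBP3 without replicate 2 (-0.79, edgeR adjusted p = 0.0852), 3 (-0.80) or 4 (-0.69) and with siNT1 (-0.69) or siNT2 (-0.89) as the only control.

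IGFBP2 had 34.4, 37.8 and 105.9 CPM in 4OHT siRBM39 and IGFBP6 17.9, 21.9 and 95.8 CPM, the highest value being the same library in both. IGFBP2 was higher than in siNT by 0.60 (SE 0.15, edgeR adjusted p = 0.000594), and by 0.32 without that library (edgeR adjusted p = 0.00419). IGFBP6 was higher by 0.98 (SE 0.21, edgeR adjusted p = 0.000109), and by 0.48 without it (edgeR adjusted p = 0.000515). IGFBP4, at 1577, 1668 and 3270 CPM, was higher by 0.41 (SE 0.11, edgeR adjusted p = 0.00103), and by 0.25 without it (edgeR adjusted p = 0.00622). The RBM39 effect on IGFBP6 differed between treatments by 0.86 (SE 0.29, edgeR adjusted p = 0.0396), a call made for 14.1% of all genes, and without that library the difference was 0.36 (edgeR adjusted p = 0.0929), and it was also not called without replicate 2 (0.93), 3 (0.99) or 4 (0.27). The call for IGFBP6 was lost too with limma-voom (0.65), a minimum of 1 count (0.82), the groups compared alone (0.87), siRBM39-06 alone (0.15), and siNT1 (0.90) or siNT2 (0.79) as the only control. With replicates 1 and 3 of siRBM39-06 in DMSO left out as well, the difference for IGFBP6 was 0.60 and was called.

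Of IGFBP5 and IGFBP7, IGFBP7 alone was called under siRBM39 with both siRNAs pooled and all libraries, in DMSO. IGFBP5 had 4578, 6729 and 7188 CPM in 4OHT siRBM39 (log2 fold change -0.07, SE 0.08, edgeR adjusted p = 0.424), and -0.016 on the log2 scale without the library that stands apart, which is the 4578. In DMSO siRBM39 it had 2821, 4150 and 4639 CPM (0.00, SE 0.08, edgeR adjusted p = 0.991), a mean over siRNAs that moved apart. With siRBM39-06 the IGFBP5 libraries had 2821, 3948, 3144 and 3867 CPM (-0.21, edgeR adjusted p = 0.0142) and with siRBM39-08 4469.8, 4639, 4352 and 4591 CPM, each above all siNT libraries (0.18, edgeR adjusted p = 0.0310). The values of 2821 and 3144 CPM are replicates 1 and 3 of siRBM39-06, without which IGFBP5 was 0.11 above siNT in DMSO (edgeR adjusted p = 0.165). With all 3 libraries that lean apart left out, IGFBP5 with siRBM39-06 was at -0.029 and not called. IGFBP7 had 180, 190 and 222 CPM in DMSO siRBM39, just above the siNT libraries (0.25, SE 0.08, edgeR adjusted p = 0.00704), and 264, 399 and 422 CPM in 4OHT siRBM39 (0.08, SE 0.08, edgeR adjusted p = 0.408). The 264 is again the library that stands apart. Tested by itself in 4OHT, siRBM39-06 raised IGFBP7 by 0.18 (edgeR adjusted p = 0.00498). Without that library siRBM39-08 was at 0.082 in 4OHT (edgeR adjusted p = 0.0591), and with all 3 libraries left out at 0.083 (edgeR adjusted p = 0.0227). The call for IGFBP7 in DMSO was lost without replicate 2 (0.23), without replicate 3 (0.22) or with siNT2 as the only control (0.19).

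The 2 siRNAs of a target did not act alike on every member. Between siNT1 and siNT2 no member was called in either treatment, where 1.63% of all genes were called in DMSO and 0.350% in 4OHT, and the smallest adjusted p of a member was 0.418. Between siSF3B1-13 and siSF3B1-16, IGFBP3, IGFBP4 and IGFBP7 differed in DMSO (37.3% of all genes) and IGFBP3, IGFBP5 and IGFBP7 in 4OHT (27.9%). Between siRBM39-06 and siRBM39-08, IGFBP2, IGFBP3, IGFBP5 and IGFBP7 differed in DMSO (47.6%) and IGFBP2, IGFBP3, IGFBP4, IGFBP6 and IGFBP7 in 4OHT (31.6%). Without the library that stands apart, the siRBM39 siRNAs differed in 4OHT for IGFBP3 alone (-1.14), and the differences of IGFBP2 (-0.19), IGFBP4 (-0.014), IGFBP6 (0.021) and IGFBP7 (0.099) were not called. In DMSO that fit called IGFBP4 (0.26) and IGFBP6 (0.46) besides the members named above. With replicates 1 and 3 of siRBM39-06 in DMSO also left out, IGFBP2 (-0.19), IGFBP5 (-0.13) and IGFBP7 (0.098) were called in 4OHT besides IGFBP3, and in DMSO the same 4 members were called, IGFBP2 at 0.20. The share of all genes called with libraries left out is not given here, so these counts say nothing about the members in particular. With all libraries, IGFBP3 and IGFBP7 were the members called in each of these 4 comparisons, IGFBP7 by at most 0.51 on the log2 scale and IGFBP3 by as much as -1.08.

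For IGFBP3 in 4OHT the 4 replicates of siSF3B1-13 had 13.3, 12.9, 14.1 and 14.3 CPM and those of siSF3B1-16 23.03, 22.04, 21.8 and 22.5 CPM. With siRBM39-06 they had 14.2, 13.3, 14.5 and 14.6 CPM and with siRBM39-08 31.8, 30.2, 31.6 and 25.8 CPM. The siRNAs of each target formed separate ranges, and each range was below siNT. The log2 fold changes from siNT were -1.81, -1.10, -1.76 and -0.68 in that order (SE at most 0.06), each called by edgeR. In DMSO, siRBM39-06 lowered IGFBP3 (8.15, 8.60, 8.13 and 9.53 CPM, -0.80, edgeR adjusted p = 1.50e-14), while siRBM39-08 left it at 15.3, 14.4, 14.6 and 15.2 CPM (-0.01, edgeR adjusted p = 0.914). In the same treatment siSF3B1-16 raised it by 0.53 (edgeR adjusted p = 7.69e-11), while siSF3B1-13 had 0.05 (edgeR adjusted p = 0.457).

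IGFBP4 and IGFBP7 were raised more by siSF3B1-13 than by siSF3B1-16 in DMSO. IGFBP4 had 2335, 2081, 1966 and 2100.3 CPM with siSF3B1-13 and 1493, 1534, 1530.2 and 1572 CPM with siSF3B1-16. The first siRNA gave a log2 fold change of 0.67 and the other 0.20 (edgeR adjusted p = 0.0652), and the 2 siRNAs differed by 0.47 (edgeR adjusted p = 0.00125). IGFBP7 changed by 0.65 and 0.14, a difference of 0.51 (edgeR adjusted p = 3.16e-08). With siSF3B1-16 as the only knockdown in the 6-group model, neither IGFBP4 (0.19) nor IGFBP7 (0.13) was called in DMSO. IGFBP5 by contrast rose by 0.70 and 0.65 with the 2 siRNAs in DMSO and differed by 0.05 between them (SE 0.08, edgeR adjusted p = 0.671).

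Because both targets are splicing factors, the exons and introns of the 6 genes were examined. Of 33 exons and introns of these genes in the event table, 13 exons and 16 introns were covered in all libraries, and none passed all filters of the test over 12921 events. The share of transcripts that include an exon or keep an intron is given as PSI in percent. The 12 regular exons had a PSI of at least 97.3 in each library, and a 58-nt exon of IGFBP6 stayed at 4.35 or less. Among the introns, 11 of 16 were under a PSI of 2 in every library.

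Intron 2 of IGFBP2, printed above, was kept more often with siSF3B1. In DMSO siNT its PSI was 0, 1.14 and 2.19 (lowest, median and highest) and in DMSO siSF3B1 4.72, 9.72 and 13.45. All siSF3B1 libraries were above all siNT libraries and above all but 1 of DMSO siRBM39 (0, 1.45 and 5.13). In 4OHT it was 0, 0 and 4.28 in siNT, 0, 5.84 and 9.10 in siSF3B1 and 0, 1.44 and 2.57 in siRBM39, with overlap. The intron rested on 15 to 128 reads per library, and the 14 libraries at 0 had 15 to 102 reads, which allows a PSI of up to 20 in the shallowest and 2.94 in the deepest, for counting error only. It was left out of the test because reads at its 2 ends and in its body were out of balance (p of 0.0247) in 1 library of 48. Without that filter it differed by 7.58 points in DMSO (limma adjusted p = 3.38e-06), a call made for 25.5% of 16230 exons and introns, and by 4.42 points in 4OHT (limma adjusted p = 3.76e-05), under the limit of 5 points that 29.9% passed. With siSF3B1-13 the DMSO mean was 10.9 ± 1.80 (SD, n = 4) and with siSF3B1-16 6.38 ± 2.56.

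An intron of IGFBP7 of 1089 nt was kept more with siRBM39 in DMSO. Its PSI in DMSO was 0.67, 0.90 and 1.66 in siNT, 0, 0.98 and 2.05 in siSF3B1 and 2.39, 3.13 and 8.89 in siRBM39. The siRBM39 libraries lay above all others in DMSO, with siRBM39-08 at a mean of 5.67 ± 3.11 and siRBM39-06 at 2.98 ± 0.50. In 4OHT it had 0.37, 1.42 and 2.45 in siNT and 1.08, 2.08 and 2.68 in siRBM39, with overlap. This intron too failed the balance filter, in 2 libraries, and without it the difference of 3.31 points (limma adjusted p = 4.15e-05) was under the limit of 5. An intron of IGFBP5 of 1229 nt went from a median PSI of 0.20 in DMSO siNT to 0.77 in DMSO siSF3B1 and from 0.28 in 4OHT siNT to 0.86 in 4OHT siSF3B1. Its range was under 5 points and it failed the balance filter in 21 libraries, so it was not tested.

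The other genes of the IGF axis were taken as a list of 21, of which 20 were in the table and 16 were tested. In 4OHT against DMSO in siNT, 7 were called higher and 7 lower, where 39% and 39.1% of all genes were, with a median log2 fold change of 0.07 where that of all genes was 0.00. STC1, whose protein inhibits PAPPA, rose most, from 61.1, 65.3 and 69.0 CPM to 2350, 2478 and 2635 CPM (log2 fold change 5.26, SE 0.13, edgeR adjusted p = 2.64e-36). The ligand IGF2 rose from 9.03, 10.5 and 10.7 CPM to 31.4, 35.3 and 38.2 CPM (1.79, SE 0.11, edgeR adjusted p = 3.22e-20), while IGF1 had at most 0.08 cRPKM and was not tested. The receptor IGF1R fell from 85.6, 90.6 and 96.5 CPM to 27.6, 29.05 and 31.2 CPM (-1.64, SE 0.05, edgeR adjusted p = 7.93e-31) and the insulin receptor INSR by a log2 fold change of -1.60. IGF2R, which clears IGF2, rose by 0.63. These groups did not overlap for STC1, IGF2, IGF1R, INSR and IGF2R, which held for 71.4% of all genes.

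With the knockdowns in 4OHT the list again moved both ways. Under siSF3B1, 8 of its 16 genes were called higher and 5 lower, against 39.4% and 37.6% of all genes (median 0.11, all genes 0.03), among them the adaptor IRS2 at 1.75, STC1 at 0.89, IGF2 at 0.49, IGF1R at 0.43, IGF2R at -0.68 and the RNA-binding proteins IGF2BP3 and IGF2BP2, which bind IGF2 mRNA, at -0.76 and -0.74. Under siRBM39, 5 were called higher and 2 lower, against 32.2% and 24.3% of all genes (median 0.13, all genes 0.05), with IGF2 at 0.51, INSR at 0.42, IGF1R at 0.31, IGF2BP3 at -0.49 and IGF2BP2 at -0.14. Without the library that stands apart, 5 were called higher and 1 lower, against 33.2% and 26.9% of all genes (median 0.062, all genes 0.036). IGF2BP2 at -0.13 was then no longer called (edgeR adjusted p = 0.0663). In DMSO the counts were 6 higher and 3 lower with siSF3B1, against 36.5% and 36.2% of all genes, and 4 higher and 2 lower with siRBM39, against 23.9% and 22.2%.

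Proteins outside the family also carry an IGFBP domain, and 8 of 13 such genes were tested. In 4OHT against DMSO in siNT, 2 were called higher and 6 lower, where 39% and 39.1% of all genes were (median log2 fold change -0.97, all genes 0.00). ESM1, an endothelial proteoglycan, rose by 6.27 from at most 0.62 CPM to 35.1 to 40.5 CPM, and the protease HTRA3 rose by 0.65. The matricellular genes CTGF (-1.50) and NOV (-1.35) fell most. In 4OHT, siSF3B1 raised CTGF by 1.27 and NOV by 0.51 and lowered WISP1 and HTRA3 (-1.24 and -0.72), with 3 called higher and 2 lower, against 39.4% and 37.6% of all genes (median 0.02, all genes 0.03). There siRBM39 had 1 higher (HTRA3, 0.40) and 4 lower, WISP1 (-1.14) and CYR61 (-0.59) most, against 32.2% and 24.3% of all genes (median -0.19, all genes 0.05). Without the library that stands apart these counts were again 1 and 4, against 33.2% and 26.9% of all genes, with HTRA3 at 0.24.

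Across the 48 libraries, each member was set against all other tested genes by Pearson's r of log2 CPM, as a description of libraries that share treatments. The most alike were JUND (0.96) and UBXN6 (0.96) for IGFBP2, GNPNAT1 (0.92) and PSMC2 (0.86) for IGFBP3, and B3GALT6 (0.95) and ARHGDIA (0.94) for IGFBP4. For IGFBP5 they were RPRD1A (0.98) and PSMD12 (0.97), for IGFBP6 CD99 (0.99) and SMARCD3 (0.98), and for IGFBP7 PLEKHB2 (0.98) and HTR7 (0.98). No member was among the 2 most alike genes of another member.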

How the data were processed

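RNA was sequenced in 48 libraries. The authors used vast-tools, per the labels and methods with VAST-DB on hg19, and deposited raw counts per gene, cRPKM (an RPKM corrected for mappability) and, for each splicing event, PSI as a percent. With PSI came corrected reads, a score of coverage and, for introns, a p-value for the balance of reads at the ends and in the body. The deposited events have coordinates of GRCh38, and loci and introns were therefore taken from GRCh37 by gene and length and promoters from GRCh38.p14. Whether counting used the strand is not given in the sources used here. A deposited table of normalised CPM was not used. The labels give 4 replicates per siRNA and treatment, the methods 3.

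Counts were tested in R 4.3.3 with edgeR 4.0.16 (glmQLFit, glmQLFTest) after TMM scaling (factors 0.927 to 1.05), in 1 model of the 6 group means over 9991 genes whose counts summed to 10000 or more. A call needed p under 0.05 after Benjamini-Hochberg adjustment over all of them. Single siRNAs were tested in a model of 12 groups, so their values can differ slightly from those of the 6 groups. CPM is TMM-scaled and compares a gene between libraries, and cRPKM compares genes. PSI was tested with limma 3.58.1 on the logit of 0.01 plus 0.98 of its fraction, over exons and introns covered in each library, with a range of at least 5 points and an intron balance p of 0.05 or more. A call also needed 5 points. Alternatives were DESeq2 1.42.0, limma-voom, other scalings, filters, groups and controls, single siRNAs, a replicate block and libraries left out. Fits without replicates 1 and 3 of siRBM39-06 in DMSO, and those of single siRNAs and lists with libraries left out, were added after the data were seen. The edgeR test of the 6 groups and the limma test of PSI were tried on simulated data for 4OHT against DMSO in siNT. The alternatives, the model of single siRNAs and the differences of effects were not. The 72 pairs of replicates differed by more than sampling noise (lowest chi-square over its degrees of freedom 1.86). Tables were joined in pandas 2.3.3 and numpy 2.4.6 and drawn in matplotlib 3.10.9, under Python 3.11.15.

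The 6 members, the lists and the tests were chosen with earlier results of these data known. Named besides the members were the 2 list genes that rose and fell most per comparison, the IGF ligands and receptors, senescence genes and the 2 genes most like each member. No per-sample column lacked a sample.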

Additional observations from a re-analysis of the deposited data

Results flagged for a closer look

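In 5 of 36 sets of 8 libraries (6 members in 6 groups), 1 library lay far outside the others by Dixon's criterion, which chance alone meets in about 1 of 20. In 4OHT siRBM39, replicate 4 of siRBM39-08 was highest for IGFBP2 (105.9 CPM, next 45.4), IGFBP4 (3270 CPM, next 1751) and IGFBP6 (95.8 CPM, next 26.1) and lowest for IGFBP7 (264 CPM, next 355). In DMSO siSF3B1, replicate 1 of siSF3B1-13 was highest for IGFBP6 (132 CPM, next 104).

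The effect of a knockdown differed between treatments in 4 cases by edgeR's test of the difference, 2 of 6 members for each knockdown. Of all genes, 37.8% were called for the siSF3B1 difference and 14.1% for the siRBM39 difference. On the log2 scale, the siSF3B1 effect in 4OHT minus that in DMSO was 0.57 for IGFBP2, not called without replicate 2 or 3 or with either siNT siRNA as the only control, and -1.72 for IGFBP3. The siRBM39 effect in 4OHT minus that in DMSO was -0.78 for IGFBP3 and 0.86 for IGFBP6. Neither was called without replicate 2, 3 or 4 or with either siNT siRNA as the only control, and IGFBP6 was 0.36 and not called without replicate 4 of siRBM39-08 in 4OHT.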

How the results depend on the processing

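Of 34 called log2 fold changes of members, 23 kept direction and call in each alternative that set no 2-fold limit, and 1 reversed, IGFBP4 for 4OHT against DMSO in siRBM39 (-0.064 with siRBM39-06 alone). Levels by total counts moved in none of 36 cases by more than the spread. IGFBP3 fell under the count filter, and gave no value, for siRBM39 against siNT in DMSO with those groups alone.

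With a 2-fold limit the members called were 3, 1 and 1 for 4OHT against DMSO in siNT, siSF3B1 and siRBM39, 0 and 1 for siSF3B1 in DMSO and 4OHT, 0 and 1 for siRBM39 in DMSO and 4OHT, and 1 and 0 for the differences of the siSF3B1 and siRBM39 effects. At that limit 18.5% of all genes were called for 4OHT in siNT, 11.6% for siSF3B1 in 4OHT and 2.29% for siRBM39 in 4OHT. For siSF3B1 in DMSO, siSF3B1-13 alone gave 5. For siRBM39 in DMSO, where the main count was 1, total counts, the groups compared alone, siRBM39-08 alone and leaving out replicate 4 of siRBM39-08 in 4OHT gave 2, one group per siRNA 3, siRBM39-06 alone 6 and siNT2 alone 0; leaving out single replicates gave 0 to 3. For the siSF3B1 difference, where it was 2, the groups compared alone gave 4, siNT1 or siNT2 alone 1, the 3 libraries left out 5, and single replicates left out gave 1 to 2. For the siRBM39 difference, also 2, limma-voom, a minimum of 1 count, the groups compared alone and leaving out replicate 4 of siRBM39-08 gave 1, siRBM39-08 alone 5, siNT1 or siNT2 alone 0, and single replicates left out 0 to 2. Of all 9991 genes, 4605 were called for siRBM39 in DMSO in the main fit and 4620 on total counts. For the siRBM39 difference 1413 were called in the main fit and 1379 with limma-voom. In the remaining settings the genes called overall are not set beside these counts, which therefore say nothing about the members in particular. Without the balance filter 1 splicing event of the members was called for siSF3B1 in DMSO, as were 25.5% of 16230 exons and introns.

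These values, not called with all libraries and both siRNAs, reversed. With siSF3B1-16 or siRBM39-08 alone, IGFBP3 was 0.041 for 4OHT in siSF3B1, IGFBP2 -0.12 and IGFBP6 -0.011 for siSF3B1 in DMSO, IGFBP2 -0.053 and IGFBP6 -0.13 for siRBM39 in DMSO, IGFBP7 -0.051 for siRBM39 in 4OHT and 0.038 for the siSF3B1 difference. IGFBP2 was -0.011 for siSF3B1 in DMSO with siNT2 alone. IGFBP5 for siRBM39 in DMSO was -0.018 with limma-voom, -0.0099 with the groups compared alone, -0.011 with one group per siRNA, -0.21 with siRBM39-06 alone (a called fall, edgeR adjusted p = 0.00172), -0.039 with siNT1 alone, -0.0016 without replicate 4 of siRBM39-08, and -0.041 to 0.035 with single replicates left out. IGFBP6 for siRBM39 in DMSO was -0.13 without the 2 replicates of siRBM39-06, with or without the third library, and -0.0051 to 0.21 with single replicates left out. IGFBP5 for siRBM39 in 4OHT was -0.13 to 0.0021 with single replicates left out. For the siRBM39 difference, siRBM39-06 alone gave IGFBP2 -0.19, IGFBP4 -0.094 and IGFBP5 0.14, and single replicates left out IGFBP4 -0.023 to 0.32 and IGFBP5 -0.14 to 0.036. For single siRNAs in 4OHT without replicate 4 of siRBM39-08, with or without the other 2 libraries, IGFBP5 was 0.058 and IGFBP7 0.082 and 0.083 with siRBM39-08 against siNT, and IGFBP6 was 0.021 and 0.020 between the siRBM39 siRNAs. The cause of these changes was not tested.

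The replicate numbers did not pair the libraries: deviations from the group means correlated with a median r of 0.01 (-0.90 to 0.79) over 264 pairs with the same number, 78 of them over 0.1, and 15 of 48 libraries correlated best with their own number. With the replicate number as a block 1 member in place of 2 was called for the siRBM39 difference, IGFBP6 (0.81) being lost, and no other count of members moved by over 1.5 times. Depth limits the introns, which rest on few reads.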
